A study of Mus musculus with 4 samples.

Results

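Solute carriers are membrane proteins that move ions, metals, amino acids, sugars, nucleosides and metabolites across the cell surface or the membranes of organelles. In the germ cell poor testes studied here, 106 solute carrier genes were taken as the set to describe, of 12393 genes measured. Their symbols consist of Slc, a family number, the letter a and a member number, and their mean log2 signal over the arrays was at or above the median of all probe sets (7.34, a signal of 162). The arrays carried 238 genes of that symbol pattern; 111 lay at or above the median and 127 below it, and of 6 genes left out by name (Slc2a1, Slc2a3, Slc16a1, Slc30a1, Slc39a8 and Slc39a14) 5 were among the 111. The members were chosen by their measured signal level, and not by the differences between groups. Just inside the threshold were Slc37a1 (mean log2 signal 7.38), Slc1a4 (7.40), Slc33a1 (7.44), Slc25a25 (7.46) and Slc38a1 (7.47), and just outside it Slc6a4 (7.34, below the threshold before rounding), Slc7a7 (7.33), Slc26a6 (7.32), Slc25a22 (7.32) and Slc2a4 (7.30).

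RNA of adult males of 2 genotypes was hybridised to Affymetrix Mouse Expression 430A arrays, as isolated seminiferous tubules and as whole testis, with 1 array for each of the 4 groups: XX/Sry tubules, W/Wv tubules, XX/Sry whole testis and W/Wv whole testis. XX/Sry males are XX animals with an Sry transgene, the testis-determining gene of the Y chromosome; the sources used here do not give their strain. W/Wv males, a cross of WB and B6 bought from a supplier, carry mutations of the receptor gene Kit. Both kinds of testis largely lack germ cells, though the summed signal of germ cell markers was highest in W/Wv whole testis (values below). The genotype ratios thus set one germ cell poor testis against another. They hold any difference of remaining germ cells, of strain and of the Y chromosome. Tubules were freed by removing the tunica, digesting with collagenase (5 mg/ml, 37 °C, 40 min) and straining at 70 µm, so the tubule ratios also hold any effect of the digestion. No group was replicated, and every fold below is a ratio of single arrays.

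In the seminiferous tubule, Sertoli cells feed the germ cells behind a barrier of tight junctions, and what passes into the tubule passes through their transporters. Leydig cells, which lie between the tubules with blood vessels and macrophages, make testosterone from cholesterol in their mitochondria and endoplasmic reticulum. The family numbers group carriers by sequence: families 30 and 39 move zinc out of and into the cytosol, family 25 serves the inner mitochondrial membrane, family 35 brings nucleotide sugars into the Golgi, and families 1, 6, 7 and 38 carry amino acids.

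All 106 genes had signals above the background bound, the highest signal of 27 bacterial control probe sets, on all 4 arrays (bounds of 46.1 to 76.3). Mean signals without the extreme 2% at each end were 500.2 on each array, and medians lay between 157 and 183. The tissue labels were checked on marker lists. Of 11 Sertoli cell markers measured, 10 or 11 were above the bound on each array, with a summed signal of 105160 in XX/Sry tubules, 122797 in W/Wv tubules, 91747 in XX/Sry whole testis and 90554 in W/Wv whole testis. Of 8 germ cell markers, 5 were above the bound in XX/Sry tubules, 6 in W/Wv tubules, 5 in XX/Sry whole testis and 8 in W/Wv whole testis, with summed signals of 990.3, 1110, 1009 and 4855 on these arrays. Ddx4, the germ cell helicase gene, was below the bound on both XX/Sry arrays (1.8 in tubules and 0.9 in whole testis). In W/Wv it had 69.2 in tubules and 304.8 in whole testis. Dazl was above the bound on all 4 arrays, at 433 to 1087. Prm1 had 1546 in W/Wv whole testis, against 23.8 in W/Wv tubules, 155.5 in XX/Sry tubules and 99 in XX/Sry whole testis. Tnp1 had 814, against 1.5, 29.5 and 4.8 in the same order. The W/Wv whole testis array enters every whole testis genotype ratio and every W/Wv ratio of tubules over whole testis. The part of germ cells in those ratios was not tested. All 6 Leydig cell markers and all 7 macrophage markers were still above the bound in both tubule arrays, at a lower summed signal than in whole testis. In RNA of whole tissue, fewer cells of a type and less RNA per cell cannot be told apart.

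The region before the annotated start is printed for the mitochondrial carrier gene Slc25a29 and the carnitine transporter gene Slc22a5, because each stood at the head of a comparison below. Both are RefSeq sequences on build GRCm38.p6, read 5′ to 3′ along the minus strand, and end at the base before the gene. That of Slc25a29 spans chr12:108835877-108836126 (250 bases) and that of Slc22a5 chr11:53891797-53891953 (157 bases). Capitals mark GC boxes (GGGCGG on either strand) and a metal response element core (TGCGCNC).
Slc25a29: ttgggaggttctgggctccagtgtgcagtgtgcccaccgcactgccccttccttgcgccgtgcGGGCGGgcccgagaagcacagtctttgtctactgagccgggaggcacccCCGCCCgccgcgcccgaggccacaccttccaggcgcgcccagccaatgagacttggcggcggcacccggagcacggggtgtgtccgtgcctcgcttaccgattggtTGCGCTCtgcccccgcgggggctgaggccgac
Slc22a5: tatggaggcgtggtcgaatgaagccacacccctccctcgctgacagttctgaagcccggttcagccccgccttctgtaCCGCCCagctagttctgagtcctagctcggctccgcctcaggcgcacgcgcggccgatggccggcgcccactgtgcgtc

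Over windows from 250 bases before to 50 bases after the start, which were at hand for 84 of the 106 genes, a GC box was present in 66 (78.6%), against 68.5% of all 5647 genes of like signal with a window. The metal response element core, the letters bound by the zinc-sensing factor MTF1, was in 29 (34.5%, against 28.8%). The half-site of NR5A1 (AAGGTCA), the factor that drives steroid synthesis genes, was in 2 (2.38%, against 3.01%), Slc11a1 and Slc31a2. The cAMP response element (TGACGTCA) was in Slc25a36 alone (1.19%, against 3.44%). Both strands were read, and a match describes letters, not binding.

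The genotype comparison asked how XX/Sry testes differ from W/Wv testes in each preparation. A single carrier, Slc25a29, was at least 2-fold higher in XX/Sry in both tubules and whole testis, and a single carrier, the anion exchanger gene Slc4a3, was at least 2-fold lower in both. The other 104 passed in neither direction. These 2 genes are 1.89% of the 106, where 1.55% of all 6843 genes at or above the same signal passed (1.05% higher and 0.497% lower), so the share lay near the background. The median log2 ratio of the 106 was 0.07 in tubules and 0.04 in whole testis, beside -0.01 and -0.03 over all genes of like signal. Ratios were above 0 in both preparations for 36 genes, below 0 in both for 26, and of unlike sign for 44.

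An additive fit of genotype and preparation gave the single error estimate that 4 arrays allow, with 1 residual degree of freedom and any interaction counted as error; it leaves out the spread between animals where tubules and whole testis share them. In that fit, tested with limma and Benjamini-Hochberg adjustment over 22626 probe sets, 0 of 106 carriers passed an adjusted p of 0.05 for genotype, where 0.15% of all probe sets did (0.11% higher and 0.0398% lower). At an unadjusted limma p under 0.05, 15 carriers passed, 10 of them higher in XX/Sry and 5 lower. That is 14.2% of the carriers against 8.74% of all probe sets, which include those below the signal threshold. No share over genes of like signal was worked out for the fit. The shares of carriers and of all probe sets are therefore not like for like. The lowest limma adjusted p values were 0.0874 for Slc4a3 and 0.0974 for Slc25a29.

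Slc25a29, on chromosome 12, encodes a mitochondrial carrier of basic amino acids. Its signal was 367 in XX/Sry tubules against 137 in W/Wv tubules, while whole testis had 1174 in XX/Sry against 350.2 in W/Wv. It was therefore 2.67-fold and 3.35-fold higher in XX/Sry, with a fitted log2 difference of 1.58 ± 0.32 (SE). A further Slc25a29 probe set above the signal threshold gave 339.5 in XX/Sry tubules against 131 in W/Wv tubules, while whole testis had 929 in XX/Sry against 255 in W/Wv, so both probe sets placed XX/Sry above W/Wv in each preparation. The Leydig markers moved the same way: 6 of 6 were higher in XX/Sry in each preparation, with a summed signal of 23012 in XX/Sry tubules against 9204 in W/Wv tubules, while whole testis had 59936 in XX/Sry against 36887 in W/Wv. Their part in the Slc25a29 values was not tested.

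Slc4a3, on chromosome 1, encodes an exchanger of chloride for bicarbonate. Its signal was 437.5 in XX/Sry tubules against 1662 in W/Wv tubules, while whole testis had 331 in XX/Sry against 723.5 in W/Wv, 3.80-fold and 2.19-fold lower in XX/Sry. Both XX/Sry arrays lay below both W/Wv arrays, and the fitted log2 difference was -1.53 ± 0.29 (SE). With a constant of 62.5 added to every signal before the logarithm, its whole testis ratio was -0.999, just short of 2-fold.

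**Figure D1:**
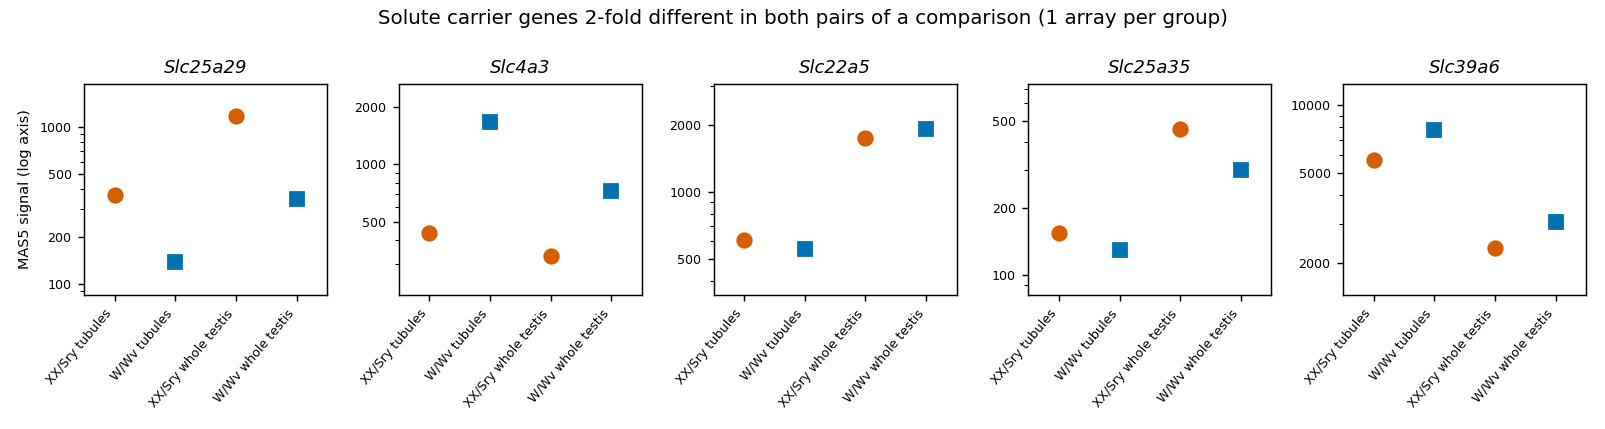
MAS5 signal (log axis, each panel with its own range) of the 5 solute carrier genes that passed 2-fold in one direction in both pairs of a comparison, with 1 point per array and no error bars. Slc25a29 was higher and Slc4a3 lower in XX/Sry than in W/Wv in both preparations; Slc22a5, Slc25a35 and Slc25a29 were lower and Slc39a6 higher in tubules than in whole testis in both genotypes.

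At 1.5-fold in both preparations, 5 carriers were higher in XX/Sry and 4 lower, 8.49% against 6.96% of all genes of like signal (3.74% higher and 3.21% lower). Those not yet described are named here after their values were seen. Slc25a20, the mitochondrial carrier that exchanges carnitine for acylcarnitine, was 1.56-fold higher in XX/Sry tubules and 1.71-fold higher in XX/Sry whole testis. The lysosomal nucleoside transporter gene Slc29a3 was 1.53-fold and 2.62-fold higher in the same order, the lysosomal carrier gene Slc46a3 1.55-fold and 1.54-fold, and the Golgi zinc transporter gene Slc30a6 1.56-fold and 1.505-fold. The phosphate transporter gene Slc20a1 was 2.42-fold and 1.58-fold lower, Slc30a4, which loads zinc into vesicles, 1.65-fold and 1.79-fold lower, and the zinc importer gene Slc39a3 1.72-fold and 1.51-fold lower. None of these 7 reached 2-fold in both preparations. A further Slc39a3 probe set, just below the signal threshold, did not go lower, with log2 ratios of 0.04 in tubules and 0.59 in whole testis.

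**Figure D2:**
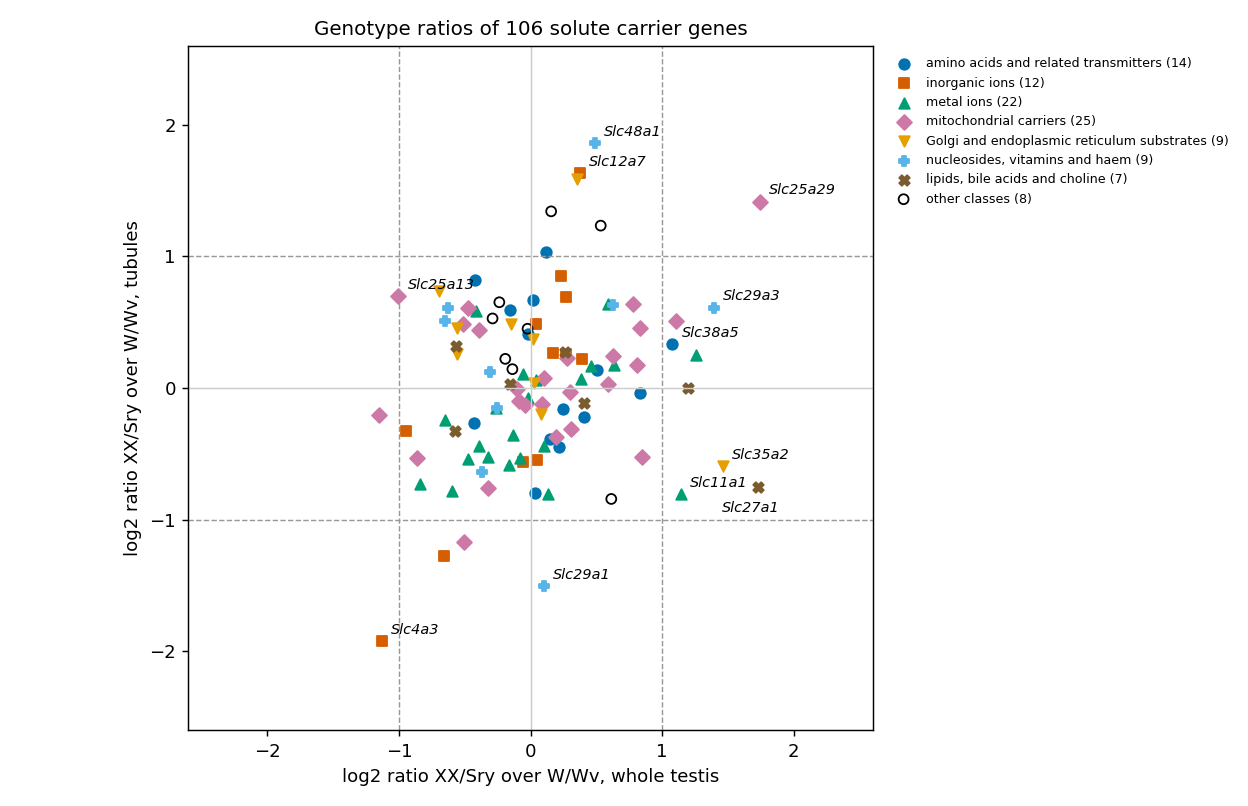
Log2 ratio XX/Sry over W/Wv of the 106 genes in whole testis (horizontal) and in tubules (vertical), 1 point per gene, coloured by transport class with the number of genes in brackets; dashed lines mark 2-fold. Slc25a29 (1.74 and 1.42) lies alone past 2-fold at the upper right and Slc4a3 (-1.13 and -1.93) alone at the lower left.

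Among the 22 metal ion carriers the median genotype log2 ratio was -0.30 in tubules, with 8 of 22 above 0, and -0.07 in whole testis, with 9 above 0; the whole testis median turned to 0.02 after the arrays were centred on their medians. Slc30a4 had the lowest mean ratio of the class and the copper transporter gene Slc31a2 the highest, with signals of 532 in XX/Sry tubules against 447 in W/Wv tubules, while whole testis had 630.2 in XX/Sry against 264 in W/Wv. Slc31a2 thus stood apart by 2.39-fold in whole testis and by 1.19-fold in tubules.

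The 12 carriers of inorganic ions ranged from -1.93 to 1.64 in tubules and from -1.13 to 0.39 in whole testis, with Slc4a3 at the low end of both. The highest mean of the 2 ratios was that of Slc12a7, a cotransporter of potassium and chloride, with 1477 in XX/Sry tubules against 476 in W/Wv tubules, while whole testis had 618 in XX/Sry against 476 in W/Wv. One array, XX/Sry tubules, was therefore high for Slc12a7 and the other 3 lay close together.

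The 25 mitochondrial carriers had medians of 0.03 in tubules and 0.10 in whole testis, and 13 and 14 of them were above 0. Slc25a10, which exchanges dicarboxylates such as malate for phosphate, had the lowest mean ratio: 669 in XX/Sry tubules against 1505.5 in W/Wv tubules, while whole testis had 801.5 in XX/Sry against 1136 in W/Wv. It was lower in XX/Sry in both preparations, by 2.25-fold and 1.42-fold. The further Slc25a10 probe set, also above the signal threshold, had log2 ratios of -1.91 in tubules and -0.04 in whole testis. The 4 mitochondrial carriers with the brightest probe sets stayed under 2-fold in each preparation. Slc25a3, the phosphate carrier, had 11758 in XX/Sry tubules against 10438 in W/Wv tubules, while whole testis had 13628 in XX/Sry against 7798 in W/Wv. The ADP/ATP carriers Slc25a4 and Slc25a5 are close copies whose probe sets may share transcripts. Slc25a4 had log2 ratios of -0.10 in tubules and -0.09 in whole testis, and Slc25a5 of -0.31 and 0.31. Further Slc25a4 probe sets above the signal threshold had ratios of -0.28 and 0.06 in tubules, and of 0.62 and -0.28 in whole testis. Slc25a39, a carrier of glutathione, was 1.38-fold higher in XX/Sry tubules and 1.78-fold higher in XX/Sry whole testis.

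Of the 14 amino acid carriers, 0 passed 1.5-fold in both preparations, where 6.96% of all genes of like signal did. At that share, 0 of 14 does not set the class apart. Slc3a2, the heavy chain that brings several family 7 transporters to the cell surface, had signals of 7648 in XX/Sry tubules against 10024 in W/Wv tubules, while whole testis had 8792 in XX/Sry against 7931 in W/Wv, with ratios of unlike sign. Its partner Slc7a5, the large neutral amino acid transporter, had log2 ratios of -0.16 in tubules and 0.25 in whole testis. Slc38a5, a glutamine transporter, had the highest mean ratio of the class, with 879 in XX/Sry tubules against 696 in W/Wv tubules, while whole testis had 1313 in XX/Sry against 622 in W/Wv. The lowest was Slc7a4, a family member whose substrate is not settled, with 3425.5 in XX/Sry tubules against 5954 in W/Wv tubules, while whole testis had 3022 in XX/Sry against 2957.5 in W/Wv.

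Carriers of nucleosides, vitamins and haem (9 genes) had medians of 0.51 in tubules and -0.25 in whole testis. Slc48a1, which returns haem from lysosomes to the cytosol, had the highest mean of the 2 ratios, with 1859 in XX/Sry tubules against 512 in W/Wv tubules, while whole testis had 1249 in XX/Sry against 889 in W/Wv. Slc29a1, the equilibrative nucleoside transporter of the cell surface, had the lowest mean: 853 in XX/Sry tubules against 2417 in W/Wv tubules, while whole testis had 2623 in XX/Sry against 2445 in W/Wv. In whole testis alone, Slc29a3 (1.39) was highest and the ascorbate transporter gene Slc23a2 (-0.65) lowest, the second named after its values were seen. As for Slc12a7, the array of XX/Sry tubules alone stood apart for Slc29a1, here on the low side.

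In the Golgi and endoplasmic reticulum class, 7 of 9 genes were above 0 in tubules (median 0.37) and 5 in whole testis (median 0.01). The glucose 6-phosphate exchanger gene Slc37a1 was 3.01-fold higher in XX/Sry tubules and 1.28-fold higher in XX/Sry whole testis, and the CMP-sialic acid transporter gene Slc35a1 had log2 ratios of 0.26 and -0.56. Among 7 carriers of lipids, bile acids and choline, the fatty acid transporter gene Slc27a4 had 227 in XX/Sry tubules against 227 in W/Wv tubules, while whole testis had 243 in XX/Sry against 106 in W/Wv. The choline transporter gene Slc44a1 had log2 ratios of -0.33 in tubules and -0.57 in whole testis.

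The 8 X-linked carriers were looked at apart, since XX/Sry males have a second X chromosome. Their genotype ratios were above 0 for 4 of 8 in tubules (median -0.04) and 4 of 8 in whole testis (median -0.03). Over all 220 X-linked genes of like signal, 144 were above 0 in tubules (median 0.18) and 131 in whole testis (median 0.14).

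Isolated tubules were then compared with the whole testis of the same genotype. In tubules, the zinc importer gene Slc39a6 was at least 2-fold higher in both genotypes, and Slc22a5, Slc25a29 and a further mitochondrial family member, Slc25a35, were at least 2-fold lower in both. The other 102 passed in neither direction. The 4 genes are 3.77% of the 106, beside 3.62% of all genes of like signal (0.716% higher and 2.91% lower). After each array was centred on its median the split of 1 higher and 3 lower became 4 higher and 2 lower, and among all genes of like signal 44.2% of the calls were higher ones after centring, against 19.8% before it. The medians of the 106 were 0.19 in XX/Sry and 0.15 in W/Wv, against 0.05 and -0.01 over all genes of like signal; after centring, all genes of like signal had medians of 0.16 in XX/Sry and 0.21 in W/Wv, and the 106 of 0.31 and 0.37.

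The additive fit called 3 carriers for preparation at a limma adjusted p under 0.05, 1 higher in tubules and 2 lower, where 1.22% of all probe sets passed (0.239% higher and 0.977% lower). At an unadjusted limma p under 0.05, 32 passed, 22 of them higher in tubules and 10 lower. That is 30.2% of the carriers against 13.9% of all probe sets, which include those below the signal threshold. A share over genes of like signal was not worked out for the fit, so the 2 shares are not like for like. The calls depended on the settings: with a constant of 62.5 added before the logarithm Slc22a5 alone was left, after median centring Slc22a5 and Slc39a6, and with no trend of the prior variance on signal 0 were left (8 at an unadjusted p under 0.05).

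Slc22a5, on chromosome 11, encodes the sodium-coupled carnitine transporter of the cell surface. Its signal was 611 in XX/Sry tubules against 1741 in XX/Sry whole testis, and 553 in W/Wv tubules against 1916 in W/Wv whole testis. Both tubule arrays lay below both whole testis arrays, by 2.85-fold in XX/Sry and 3.46-fold in W/Wv. In the additive fit Slc22a5 fell by 1.65 on the log2 scale (limma, Benjamini-Hochberg adjusted p = 0.0107). The other Slc22a5 probe set gave 188 in XX/Sry tubules against 429 in XX/Sry whole testis, and 168 in W/Wv tubules against 408.5 in W/Wv whole testis.

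Slc25a29 fell by 1.51 on the log2 scale (limma, Benjamini-Hochberg adjusted p = 0.0478). That call was lost after median centring, with the added constant, with no variance trend and when a gene's probe sets were averaged, and was kept after quantile normalisation. Slc25a29 was 3.20-fold lower in XX/Sry tubules and 2.55-fold lower in W/Wv tubules than in whole testis. Slc25a35 had signals of 154 in XX/Sry tubules against 461 in XX/Sry whole testis, and 130.1 in W/Wv tubules against 298 in W/Wv whole testis. Its W/Wv log2 ratio of -1.20 shrank to -0.98 after median centring, under 2-fold. Over the scalings and the added constant, that ratio ranged from -1.20 to -0.91. Of the markers of cells that lie between the tubules, those of Leydig cells and macrophages were also lower in tubules. Most of those of endothelial cells, which were mainly dim, were not. The 6 Leydig markers had median log2 ratios of -1.44 in XX/Sry and -2.37 in W/Wv, with 0 of 6 above 0 in either genotype. The 7 macrophage markers had medians of -2.87 and -1.36, also with 0 above 0, and a summed signal of 3237 in XX/Sry tubules against 13201 in XX/Sry whole testis, and 4074 in W/Wv tubules against 9396 in W/Wv whole testis. The 6 endothelial markers had medians of 0.59 and 0.52, with 5 of 6 above 0 in each genotype. Only 1 of these 6, Kdr, was at or above the signal threshold, with ratios of 0.55 in XX/Sry and -0.20 in W/Wv. In whole testis 5 of the 6 were above the background bound in XX/Sry and 4 in W/Wv. All 6 Leydig and all 7 macrophage markers were at or above the signal threshold. The part of any of these cells in the values of the 3 carriers was not tested.

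Slc39a6, on chromosome 18, had signals of 5726 in XX/Sry tubules against 2328 in XX/Sry whole testis, and 7783 in W/Wv tubules against 3060 in W/Wv whole testis. It rose by 1.32 on the log2 scale in tubules (limma, Benjamini-Hochberg adjusted p = 0.0301). The folds were 2.46 in XX/Sry and 2.54 in W/Wv. The mean of all its probe sets gave a log2 ratio of 0.91 in XX/Sry, under 2-fold, since a further probe set had ratios of 0.52 in XX/Sry and 1.03 in W/Wv. In W/Wv both probe sets, and so their mean, stayed past 2-fold. Of the Sertoli markers, 10 of 11 were above 0 in each genotype, with medians of 0.18 in XX/Sry and 0.59 in W/Wv; their part in the Slc39a6 values was not tested.

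**Figure D3:**
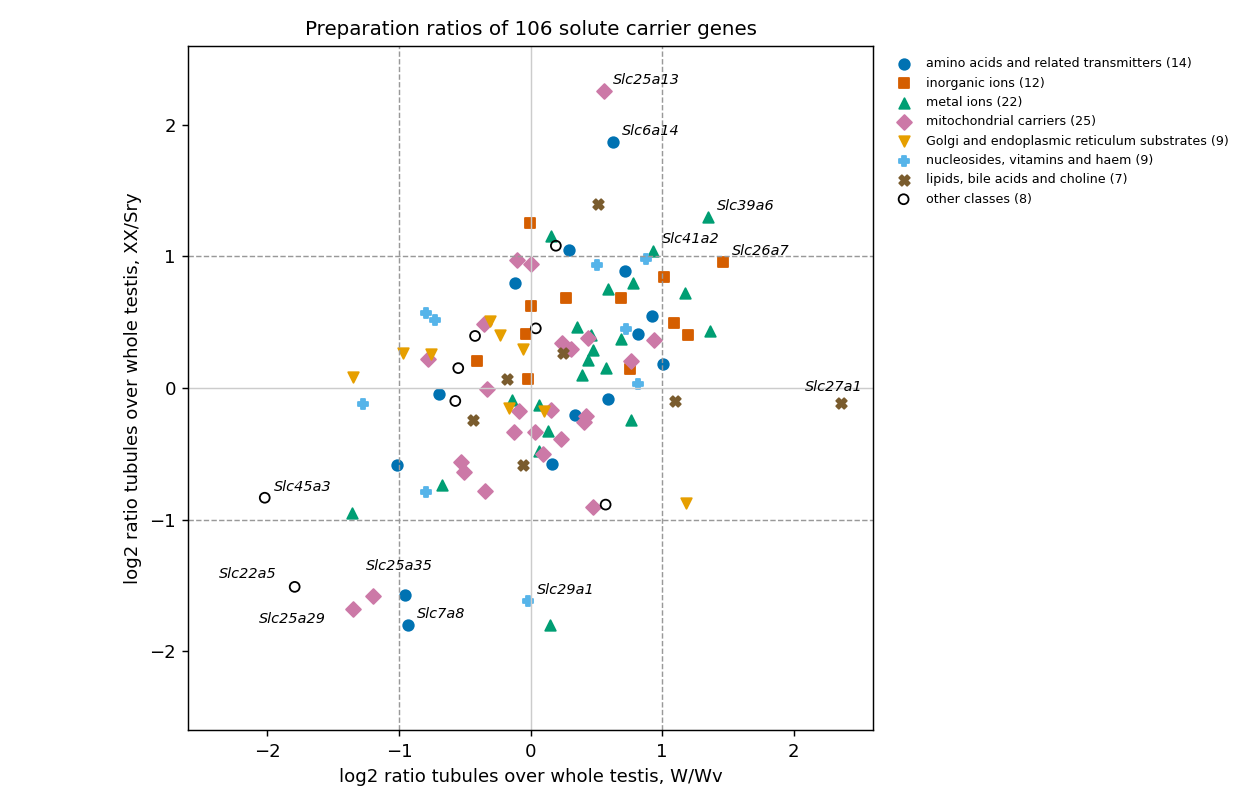
Log2 ratio tubules over whole testis of the 106 genes in W/Wv (horizontal) and in XX/Sry (vertical), 1 point per gene, coloured by transport class with the number of genes in brackets; dashed lines mark 2-fold. Slc39a6 (1.35 and 1.298) lies past 2-fold at the upper right, and Slc22a5, Slc25a29 and Slc25a35 at the lower left.

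At 1.5-fold in both genotypes 13.1% of all genes of like signal passed, and 19.8% of the 106. Of the carriers, 11 were higher in tubules (10.4%, against 5.48% of all genes of like signal) and 10 were lower (9.43%, against 7.6%). The higher ones were Slc6a8, Slc6a14, Slc12a9, Slc20a2, Slc26a7, Slc30a2, Slc39a6, Slc39a13, Slc41a2, Slc41a3 and Slc52a3. The lower ones were Slc1a5, Slc7a8, Slc38a1, Slc39a1, Slc40a1, Slc25a29, Slc25a35, Slc46a3, Slc22a5 and Slc45a3. Most of these were chosen for naming after their values were seen.

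Metal ion carriers leaned towards tubules, more so in W/Wv. Of 22, 14 were above 0 in XX/Sry (median 0.25) and 19 in W/Wv (median 0.45). Over all genes of like signal 53.5% and 49.2% were above 0. Of all 106 carriers, 62 were above 0 in XX/Sry (median 0.19) and 63 in W/Wv (median 0.15). In XX/Sry the class thus lay near the whole set. Both class medians stayed above 0 under every scaling tried. Median centring also lifted the medians of all genes of like signal, to 0.16 in XX/Sry and 0.21 in W/Wv. The magnesium transporter gene Slc41a2 had 2827 in XX/Sry tubules against 1370 in XX/Sry whole testis, and 3137 in W/Wv tubules against 1645 in W/Wv whole testis. Its relatives Slc41a3 (1.74-fold in XX/Sry and 1.72-fold in W/Wv) and Slc41a1 (1.32-fold and 1.37-fold) were also higher in tubules, so all 3 members of family 41 in the set had ratios above 0. Slc30a2, which exports zinc into vesicles, was 1.65-fold and 2.25-fold higher in tubules. Against the lean of the class, the zinc importer gene Slc39a1 had 332 in XX/Sry tubules against 640 in XX/Sry whole testis, and 394 in W/Wv tubules against 1006 in W/Wv whole testis. The iron exporter gene Slc40a1, which macrophages use to release iron, was 1.66-fold lower in XX/Sry tubules and 1.59-fold lower in W/Wv tubules.

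Inorganic ion carriers were above 0 in 12 of 12 cases in XX/Sry (median 0.56) and in 8 of 12 in W/Wv (median 0.48). The phosphate transporter gene Slc20a2 had 1302 in XX/Sry tubules against 726 in XX/Sry whole testis, and 1117 in W/Wv tubules against 553 in W/Wv whole testis. The anion exchanger gene Slc26a7 was 1.94-fold higher in XX/Sry tubules and 2.76-fold higher in W/Wv tubules. The mitochondrial carriers showed no such lean, with 10 of 25 above 0 in XX/Sry (median -0.17) and 14 of 25 in W/Wv (median 0.04).

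Amino acid carriers split by gene. The 14 had medians of 0.07 in XX/Sry and 0.32 in W/Wv. Slc7a5 and Slc7a8, both light chains that pair with Slc3a2, lay on opposite sides. Slc7a5 had 5458 in XX/Sry tubules against 4096 in XX/Sry whole testis, and 6088 in W/Wv tubules against 3452 in W/Wv whole testis. Slc7a8 had 362 in XX/Sry tubules against 1260.2 in XX/Sry whole testis, and 371 in W/Wv tubules against 707 in W/Wv whole testis, with a limma adjusted p of 0.0635. The heavy chain Slc3a2 had log2 ratios of -0.20 in XX/Sry and 0.34 in W/Wv. Slc1a5, the neutral amino acid exchanger, was 2.98-fold lower in XX/Sry tubules and 1.93-fold lower in W/Wv tubules, whereas the creatine transporter gene Slc6a8 was 1.85-fold and 1.65-fold higher.

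In the remaining classes, the riboflavin transporter gene Slc52a3 had 4766 in XX/Sry tubules against 2409 in XX/Sry whole testis, and 5281 in W/Wv tubules against 2871 in W/Wv whole testis. Its log2 ratios were 0.98 in XX/Sry, just under 2-fold, and 0.88 in W/Wv. It passed after median centring. Slc44a2, a choline transporter-like gene and among the brightest probe sets of the 106, was 2.64-fold higher in XX/Sry tubules and 1.42-fold higher in W/Wv tubules. Golgi and endoplasmic reticulum carriers were above 0 in 6 of 9 cases in XX/Sry and in 2 of 9 in W/Wv.

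**Figure D4:**
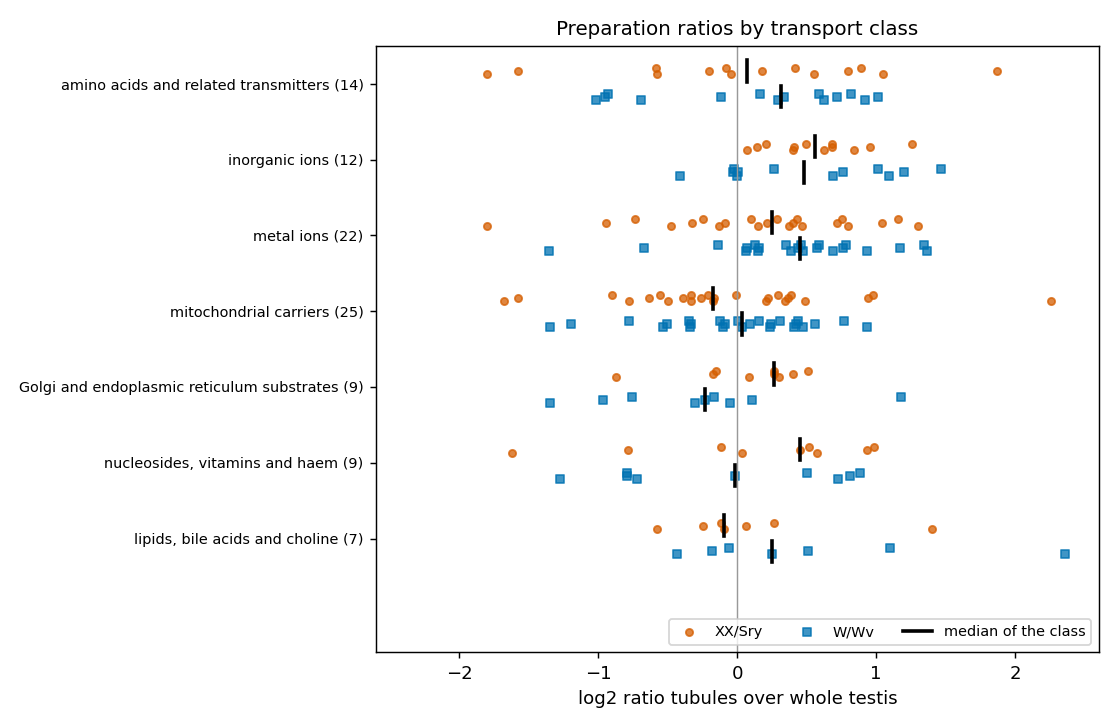
Log2 ratio tubules over whole testis by transport class, 1 point per gene for each genotype (the number of genes in brackets), with a bar at the class median. All 12 inorganic ion carriers lie above 0 in XX/Sry, and 19 of 22 metal ion carriers lie above 0 in W/Wv.

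Some carriers did not follow the additive pattern. For 7 genes the genotype ratio was at least 1.5-fold one way in tubules and at least 1.5-fold the other way in whole testis, 6.60% against 2.22% of all genes of like signal; this threshold was chosen after the values were seen. The fatty acid transporter gene Slc27a1 had 672 in XX/Sry tubules against 1130 in W/Wv tubules, while whole testis had 729 in XX/Sry against 220 in W/Wv. Here the W/Wv whole testis array was the low one. Slc35a2, the X-linked transporter of UDP-galactose, had 327 in XX/Sry tubules against 492 in W/Wv tubules, while whole testis had 598 in XX/Sry against 217.5 in W/Wv, again with the lowest value in W/Wv whole testis. The 2 further Slc35a2 probe sets above the signal threshold did not share this pattern, with genotype log2 ratios of 0.01 and 0.01 in tubules, and of -0.44 and 0.11 in whole testis. A dimmer Slc35a2 probe set below the threshold did share the opposite signs, with -1.26 in tubules and 0.60 in whole testis. In Slc11a1, a metal transporter of the macrophage phagosome, the XX/Sry whole testis array was high, at 383 against 173 in W/Wv whole testis, while tubules had 110 in XX/Sry against 192 in W/Wv. The 7 macrophage markers had median genotype ratios of -0.58 in tubules and 0.52 in whole testis, and their part in the Slc11a1 values was not tested. Slc25a13, a mitochondrial exchanger of aspartate and glutamate, had 465 in XX/Sry tubules against 286.5 in W/Wv tubules, while whole testis had 97.1 in XX/Sry against 195 in W/Wv. These differences between preparations could not be tested with 1 array per group.

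**Figure D5:**
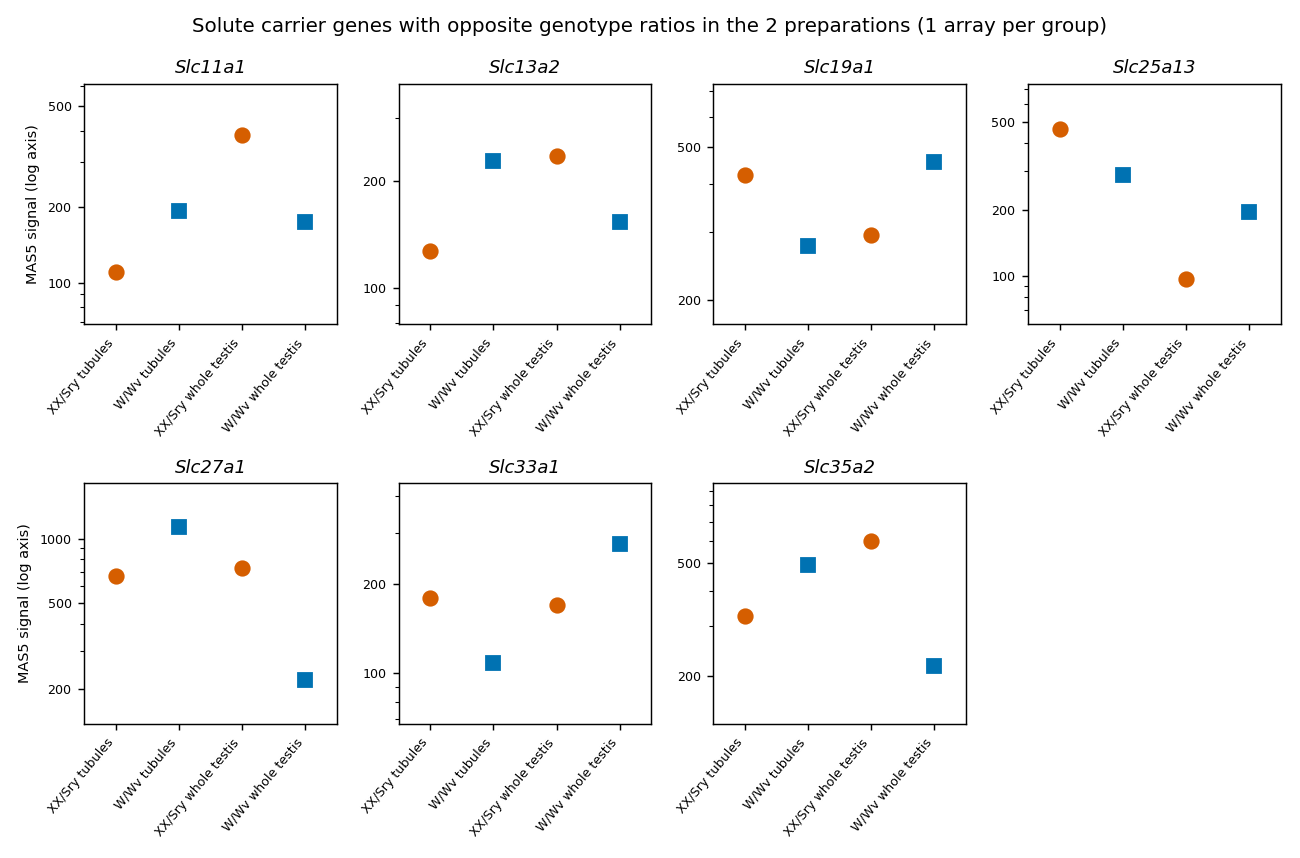
MAS5 signal (log axis, each panel with its own range) of the 7 solute carrier genes whose genotype ratio was at least 1.5-fold in opposite directions in tubules and whole testis, with 1 point per array and no error bars. In each panel XX/Sry and W/Wv change places between the tubule pair and the whole testis pair.

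For 38 genes, 57 further probe sets also lay above the signal threshold, and they ran the same way as the one used in 75.4% of cases for the genotype ratio in tubules and in 59.6% in whole testis. For the ratio of tubules over whole testis they did so in 75.4% of cases in XX/Sry and 70.2% in W/Wv. Among the genes named above, a further probe set departed from the one used in several cases. That of the creatine transporter gene Slc6a8 had ratios of tubules over whole testis of -0.15 in XX/Sry and 1.20 in W/Wv, that of Slc40a1 of -0.34 and 0.43, and that of Slc20a2 of 0.15 and 0.29, all on the log2 scale. The further Slc25a20 probe set had log2 genotype ratios of -0.20 in tubules and 0.28 in whole testis, that of Slc44a1 of -0.11 and 0.58, and that of Slc35a1 of 0.16 and 0.33. In some genes the sign was shared but the size was not: the further probe set had a log2 genotype ratio in tubules of 0.62 for Slc48a1, against 1.86, and of 0.67 for Slc12a7, against 1.64, and in whole testis of 0.45 for Slc31a2, against 1.26. For Slc25a29, the further probe set had ratios of tubules over whole testis of -1.45 in XX/Sry and -0.96 in W/Wv, the second just under 2-fold. For Slc44a2, 2 further probe sets had such ratios of 0.55 and 1.33 in XX/Sry, and of 0.90 and 2.17 in W/Wv.

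Other transport genes were measured beside the solute carriers. Of all 12393 genes, dim ones included, 5.20% passed 2-fold in both pairs for genotype and 7.05% for preparation. Among the 6843 genes at or above the signal threshold, 1.55% and 3.62% passed. Of 17 subunits of the vacuolar proton pump measured, 0 were 2-fold different in both pairs of either comparison. At such shares, 0 of 17 does not set these subunits apart. A list of sodium potassium pump genes and relatives had 9 genes measured. Of these, the beta subunit gene Atp1b1 was lower in XX/Sry, with 2248 in XX/Sry tubules against 4935 in W/Wv tubules. Whole testis had 1243 in XX/Sry against 3404 in W/Wv. The beta subunit genes Atp1b2 and Atp1b3 had genotype log2 ratios of -0.77 and -0.48 in tubules, and of 0.03 and 0.03 in whole testis. Fxyd1, a regulator of the pump, was 5.03-fold lower in XX/Sry tubules and 6.55-fold lower in W/Wv tubules than in whole testis. Among 17 ABC transporters, the lipid transporter gene Abca3 was 2.94-fold higher in XX/Sry tubules and 3.13-fold higher in XX/Sry whole testis, and Abca7, Abca8a and Abcg4 counted as lower in tubules. All 3 lay below the signal threshold, with no Abca7 signal above the background bound and Abcg4 under it in XX/Sry tubules. Of 8 aquaporins, the water channel gene Aqp2 was 3.47-fold lower in XX/Sry tubules and 3.38-fold lower in W/Wv tubules. In the Slco family of organic anion transporters, 11 genes measured, 1 counted as higher in XX/Sry and 2 as lower in tubules, all with signals below the background bound on at least 1 array.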

How the data were processed

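RNA was measured on 4 Affymetrix 430A arrays, 1 per genotype and preparation. The authors deposited linear MAS5 intensity values (signals); MAS5 is named in the submitters' processing notes, and its scaling target and detection calls are not given there. Signals were used as deposited. The arrays hold 22690 probe sets, of which 64 are controls and were left out; the platform annotation gave 1 gene to 20380 of the remaining 22626, and a gene was represented by its brightest probe set. A gene passed a comparison when both pairs of arrays differed by 2-fold or more in one direction, the rule of the design text. The additive fit used the two-sided moderated test of limma 3.58.1 (R 4.3.3, 9.98 prior degrees of freedom, with a trend of the prior variance on signal, Benjamini-Hochberg adjustment over 22626 probe sets) and was tested on simulated data. The number of arrays limits the precision. The set, the lists, the tests and the thresholds were chosen with earlier results of these data known. Genes were named where they passed in a comparison or the fit, were among the 10 brightest, lay next to the signal threshold, or had the highest or lowest mean genotype ratio of a class of at least 4; others are said to be chosen after their values were seen, or are examples from the 1.5-fold groups, the classes and the other transport lists. Alternatives were other scalings, an added constant, the mean of probe sets, other signal thresholds, other folds and no variance trend. RefSeq windows matched 84 genes; no window is shown for a gene on chromosome 18.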

Additional observations from a re-analysis of the deposited data

Results flagged for a closer look

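In 7 carriers XX/Sry and W/Wv stood at least 1.5-fold apart in opposite directions in tubules and whole testis. None of these differences between preparations could be tested with 1 array per group. The log2 genotype ratio in tubules minus that in whole testis was -2.48 for the fatty acid transporter gene Slc27a1 (-0.75 in tubules, 1.73 in whole testis). It was -2.05 for Slc35a2 (-0.59 and 1.46) and -1.95 for Slc11a1 (-0.81 and 1.14). For Slc13a2, a sodium-coupled transporter of dicarboxylates such as succinate, it was -1.46 (-0.84 and 0.61). The other 3 ran the opposite way: 1.70 for Slc25a13 (0.70 and -1.0), 1.44 for Slc33a1, which brings acetyl-CoA into the endoplasmic reticulum (0.74 and -0.70), and 1.24 for the folate transporter gene Slc19a1 (0.61 and -0.63). For Slc35a2, further probe sets above the signal threshold did not share the pattern, while a dimmer probe set below it had the same opposite signs.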

How the results depend on the processing

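No paired analysis was possible because each group had 1 array and the labels carry no replicate numbers, so no replicate could be left out either. For genotype, the 2 genes past 2-fold became 1 with a constant of 62.5 added to the signals (Slc25a29 was left), 11 with no signal threshold, 1 at a threshold of the 75th percentile, 9 at 1.5-fold and 0 at 3-fold. For preparation, the 4 genes became 14 with no threshold, 2 at the 75th percentile, 21 at 1.5-fold and 0 at 3-fold. The median tubule ratio in XX/Sry was 0.31 after median centring, 0.0094 with no threshold and 0.33 at the 75th percentile, and in W/Wv 0.37, -0.063 and 0.41. The median genotype ratio in tubules was -0.12 at the 75th percentile. The limma calls for preparation, 3 as reported, were 1 with the added constant (Slc22a5), 2 after median centring (Slc22a5 and Slc39a6) and 0 with no variance trend (8 at an unadjusted p under 0.05), while those for genotype were 0 under every alternative run (2 to 20 at an unadjusted p under 0.05). The cause of these shifts was not tested. Of the medians, that of the tubule ratio in W/Wv changed sign with no threshold and that of the genotype ratio in tubules at the 75th percentile, both given above, and the genotype median of the metal ion carriers in whole testis turned to 0.02 after median centring, against -0.07 as reported. Centring also gave 4 higher and 2 lower genes in tubules, against 1 and 3. By the smaller of their 2 ratios, no named gene past 2-fold changed sign. Signals near the background bound limit the genes below the threshold.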

Other observations

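The 127 solute carrier genes below the signal threshold passed 2-fold in both pairs more often than the 106 above it, as dim genes did across the arrays. For genotype, 6 of them were higher in XX/Sry and 4 lower (7.87%, against 5.20% of all 12393 genes, bright ones included). In opposite directions in the preparations, 10 passed 2-fold, beside 468 of all 12393 genes. For tubules against whole testis, 1 was higher and 9 lower (7.87%, against 7.05% of all genes), with 9 in opposite directions, beside 445 of all 12393 genes. Of all 6843 genes at or above the threshold, 1.55% passed for genotype and 3.62% for preparation. The shares over dim genes alone therefore lay above 5.20% and 7.05%. They were not worked out, so the shares of the 127 are not set like for like. Among the 106 above the threshold, 0 passed 2-fold in opposite directions in either comparison. Of all 6843 genes of like signal, 10 did so for genotype and 8 for preparation.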
